A study of Mus musculus with 8 samples.

Results

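The genes described here are 10 transcripts known to respond to stretch and hypertrophic load in the heart: Ankrd1, Ankrd2, Ankrd23, Xirp1, Xirp2, Csrp3, Fhl1, Rcan1, Nmrk2 and Uchl1. They were chosen by name, each as the array row annotated with exactly that 1 gene symbol, and all 10 were found among the 19938 genes of the table, each with 1 row. The names were chosen with the differences between the MHC-Plin5 and control hearts of these data known, so those differences are given as a description. Where one of the 10 is called or not called below, that is its label in a fit over all genes and no independent test. Each of the 8 samples is the heart of 1 mouse on an Affymetrix whole-transcript array, 4 labelled MHC-Plin5 and 4 labelled control. What both groups share is the male sex, the c57/bl background, an age of 12 weeks and a source name that calls the hearts fasted. MHC-Plin5 mice make extra Plin5, the lipid droplet coat protein perilipin 5, in cardiomyocytes, the cells in which a cardiac myosin heavy chain (MHC) promoter is active. The labels do not say what the control mice carry, whether the animals were littermates, or whether atria were included.

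Heart muscle cells sense load at the Z-disc and along titin, the giant spring protein of the sarcomere, and at the intercalated discs that join the cells end to end. Proteins at these sites can also move to the nucleus, and their genes are widely used as readouts of stretch and hypertrophic growth. A separate arm of the response runs through calcineurin, a calcium-activated phosphatase that frees NFAT transcription factors to enter the nucleus.

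RefSeq start windows of the assembly GRCm38.p6, each from 250 bases before to 50 bases after a transcription start, were found for 9 of the 10 genes, with 13 windows in all, and Xirp1 was not among them. The 250 bases before the start are printed for the 3 genes called higher in MHC-Plin5 hearts (Ankrd1, Nmrk2 and Uchl1) and for 3 others whose windows held a motif of muscle or NFAT control (Xirp2, Fhl1 and Rcan1). Each runs 5′ to 3′ on the strand of the gene, and capitals mark matches on either strand to M-CAT (CATTCC, the letters read by TEAD factors), the NFAT core (GGAAA), the TATA box (TATAAA), the CArG box of serum response factor and the MEF2 site.
Ankrd1, chr19:36119845-36120094, minus strand: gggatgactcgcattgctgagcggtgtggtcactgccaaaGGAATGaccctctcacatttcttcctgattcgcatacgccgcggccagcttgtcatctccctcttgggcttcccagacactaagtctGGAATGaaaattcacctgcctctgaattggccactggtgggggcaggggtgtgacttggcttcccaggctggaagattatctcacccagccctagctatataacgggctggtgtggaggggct
Nmrk2, chr10:81202038-81202287, minus strand: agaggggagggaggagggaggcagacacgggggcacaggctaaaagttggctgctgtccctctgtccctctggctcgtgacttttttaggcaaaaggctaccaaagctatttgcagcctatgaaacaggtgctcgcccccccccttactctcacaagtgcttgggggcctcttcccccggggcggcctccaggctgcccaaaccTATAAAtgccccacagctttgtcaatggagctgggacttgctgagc
Uchl1, chr5:66675871-66676120, plus strand: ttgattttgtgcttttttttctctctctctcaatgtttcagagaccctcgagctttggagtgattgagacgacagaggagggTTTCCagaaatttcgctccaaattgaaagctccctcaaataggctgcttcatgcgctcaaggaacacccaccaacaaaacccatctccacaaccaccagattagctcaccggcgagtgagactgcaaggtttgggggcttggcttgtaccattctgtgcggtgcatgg
Xirp2, chr2:67445752-67446001, plus strand: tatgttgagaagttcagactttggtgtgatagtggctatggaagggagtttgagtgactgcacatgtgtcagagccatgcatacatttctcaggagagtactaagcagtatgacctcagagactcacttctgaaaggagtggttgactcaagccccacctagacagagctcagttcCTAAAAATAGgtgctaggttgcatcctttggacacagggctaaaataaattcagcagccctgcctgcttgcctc
Fhl1, upstream start, chrX:56779433-56779682, plus strand: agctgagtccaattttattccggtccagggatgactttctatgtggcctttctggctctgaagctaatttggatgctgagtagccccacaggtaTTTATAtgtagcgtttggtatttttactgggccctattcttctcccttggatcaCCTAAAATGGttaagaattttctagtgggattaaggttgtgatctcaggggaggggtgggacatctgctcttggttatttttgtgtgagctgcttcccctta
Rcan1, downstream start, chr16:92400079-92400328, minus strand: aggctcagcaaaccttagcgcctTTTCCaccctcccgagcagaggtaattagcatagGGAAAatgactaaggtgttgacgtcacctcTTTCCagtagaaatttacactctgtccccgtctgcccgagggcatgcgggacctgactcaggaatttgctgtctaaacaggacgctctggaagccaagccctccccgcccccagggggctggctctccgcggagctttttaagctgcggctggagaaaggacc

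The Ankrd1 window held 2 M-CAT matches, at -210 and -123 from the start. This motif was in 3 of the 13 windows of these genes, the other 2 being both Ankrd23 windows, and in 14.7% of all 32851 start windows. The downstream start of Rcan1, which gives the shorter isoform, held 3 NFAT cores at -227, -193 and -163, while its upstream start held 0. The NFAT core was in 6 of the 13 windows and in 61.3% of all windows. Xirp2 had the 1 MEF2 site of these windows, at -74, where 3.19% of all windows hold one. Fhl1 had the 1 CArG box, at -102 of its upstream start, where 1.63% of all windows hold one. Nmrk2 had a TATA box at -46, a motif found in 3 of the 13 windows and in 13.6% of all windows. The other TATA matches were at -29 in Ankrd2 and at -156 of the upstream start of Fhl1. Uchl1 had an NFAT core at -168. The letters TATAAA can fall inside a MEF2 site or a CArG box, and the matches are letters found in a window, not measured binding. The core of the amino acid response element (TGATGNAA), through which ATF4 acts, was in 0 of the 13 windows and in 3.97% of all windows. The single array row of Rcan1 does not tell its starts apart.

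Values below are the deposited log2 expression values, and a difference is the mean of the MHC-Plin5 hearts minus the mean of the control hearts on that scale, with its standard error (SE) from limma. A gene was called higher or lower at a limma adjusted p under 0.05 over all 19938 genes. Plin5 itself lay between 12.08 and 12.69 in the MHC-Plin5 hearts and between 8.58 and 9.04 in the control hearts, 11.7-fold higher (exact two-sided permutation p = 0.0286, the smallest that 4 against 4 hearts can give), so it did not go against any label. The highest array medians were those of control 2 (6.24) and MHC-Plin5 4 (6.18), and the other 6 were 5.99 to 6.04. The number of arrays limits the precision of every value.

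Of the 10 genes, 3 were called higher in MHC-Plin5 hearts and 0 lower by limma, beside 2.08% of all genes called higher, 1.17% called lower and 3.25% called in either direction. At an unadjusted p under 0.05, 7 of the 10 were higher and 0 lower, beside 8.69% and 7.86% of all genes. Because the genes were picked from this contrast, nothing is read from these counts. The called genes were Uchl1 (4.62-fold), Nmrk2 (4.07-fold) and Ankrd1 (1.82-fold). Xirp2, Rcan1 and Fhl1 had differences of 0.63 to 0.86, Xirp1 and Ankrd23 of 0.35 and 0.30, and Ankrd2 and Csrp3 lay near 0. The 4 MHC-Plin5 hearts did not overlap the 4 control hearts in 5 of the 10 genes, all with MHC-Plin5 higher, where this held for 6.24% of all genes. The median difference was 0.69 over the 10 genes and -0.03 over all genes. In whole hearts, a change in the number of cells of a type and a change in RNA per cell cannot be told apart.

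**Figure D1:**
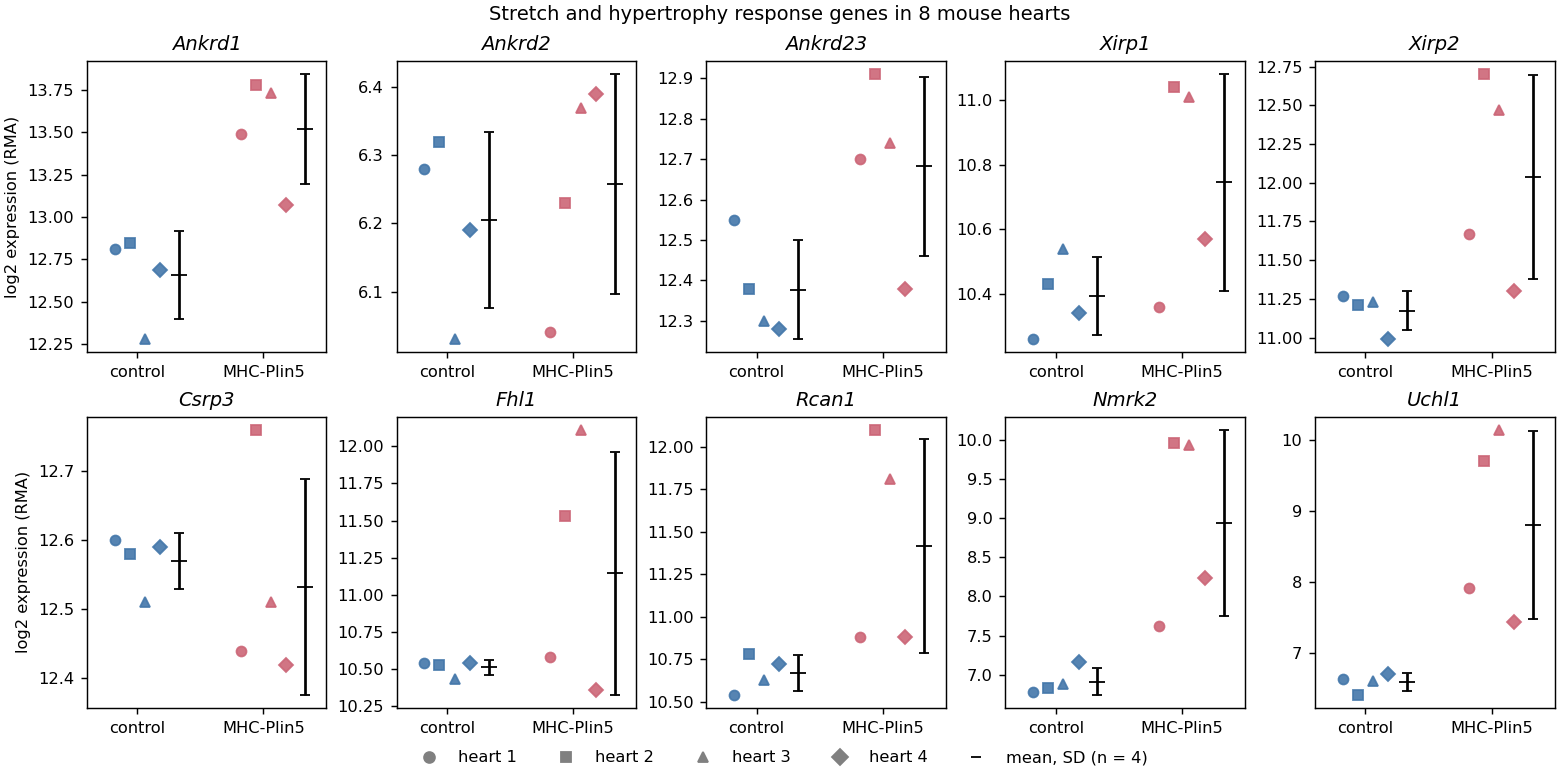
Log2 expression (RMA) of the 10 genes in the 4 control and 4 MHC-Plin5 hearts, one panel a gene with its own axis, with marker shape for the heart number and the mean and SD (n = 4) beside each group. Uchl1 and Nmrk2 spread over 2.71 and 2.31 log2 units among the MHC-Plin5 hearts and over 0.30 and 0.38 among the control hearts.

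Ankrd1, Ankrd2 and Ankrd23 encode the muscle ankyrin repeat proteins, which bind titin and can enter the nucleus. Ankrd1, the cardiac form, stood at 12.81, 12.85, 12.28 and 12.69 in control 1 to 4. Its levels in the MHC-Plin5 hearts 1 to 4 were 13.49, 13.78, 13.73 and 13.07. Every MHC-Plin5 heart was above every control heart, with MHC-Plin5 4 the nearest, 0.22 above control 2. The means were 13.52 ± 0.32 against 12.66 ± 0.26 (SD, n = 4 each), a difference of 0.86 (SE 0.17). Ankrd23, which also binds titin, stood at 12.55, 12.38, 12.30 and 12.28 in control 1 to 4, while the MHC-Plin5 hearts 1 to 4 had 12.70, 12.91, 12.74 and 12.38. MHC-Plin5 4 lay within the control range and the other 3 above it, and the difference of 0.30 (SE 0.12) was not called. Ankrd2, the form best known from slow skeletal muscle, had a control range of 6.03 to 6.32 and an MHC-Plin5 range of 6.04 to 6.39. Its groups overlapped over most of their range, with a difference of 0.05 (95% interval -0.19 to 0.30) that was not called. In the same hearts, 0 of 11 skeletal muscle markers were called (1 at an unadjusted limma p under 0.05), and their summed level was 10.27 to 10.30 in control and 9.93 to 10.27 in MHC-Plin5 hearts. The part of skeletal muscle in the values of Ankrd2 was not tested. Ankrd1 was no longer called when control 1, 3 or 4 was left out, nor when MHC-Plin5 2 or 3 was, with differences of 0.73 to 0.91, and the difference of Ankrd2 was -0.003 without control 3.

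Xirp1 and Xirp2 encode Xin repeat proteins, which bind actin at the intercalated disc. Xirp2 stood at 11.27, 11.21, 11.23 and 10.99 in control 1 to 4, while the MHC-Plin5 hearts 1 to 4 had 11.67, 12.70, 12.47 and 11.30. The groups did not overlap, although MHC-Plin5 4 was only 0.03 above control 1. Its difference of 0.86 (SE 0.26) was as large as that of Ankrd1, with an SD of 0.66 among MHC-Plin5 hearts, and it was not called. Xirp1 ranged from 10.26 to 10.54 in control hearts and stood at 10.36, 11.04, 11.01 and 10.57 in MHC-Plin5 1 to 4. MHC-Plin5 1 lay inside the control range, and the difference of 0.35 (SE 0.15) was not called. Without MHC-Plin5 4, Xirp2 was called (difference 1.11), and the number of the 10 genes called was then 4. It was also called without the 2 arrays of highest median (1.12).

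Csrp3 and Fhl1 encode LIM domain proteins. Csrp3, the muscle LIM protein of the Z-disc whose loss leads to dilated hearts, stood at 12.60, 12.58, 12.51 and 12.59 in control 1 to 4, while the MHC-Plin5 hearts 1 to 4 had 12.44, 12.76, 12.51 and 12.42. The MHC-Plin5 hearts lay on both sides of the control hearts, and the difference of -0.04 (95% interval -0.26 to 0.19), which turned to 0.005 with median centring, was not called. Fhl1, which binds titin and takes part in hypertrophic signalling, stood at 10.54, 10.53, 10.43 and 10.54 in control 1 to 4. The MHC-Plin5 hearts 1 to 4 were at 10.58, 11.53, 12.11 and 10.36. MHC-Plin5 2 and 3 were thus 1.02 and 1.60 above the control mean, while MHC-Plin5 4 was below every control heart. The difference of 0.63 (SE 0.31) was not called. MHC-Plin5 3, the highest heart in Fhl1, also had the highest mean of the markers of smooth muscle, a cell type that can express Fhl1. The mean of the 6 smooth muscle markers was 0.82 above the control mean in that heart and -0.27 to -0.06 from it in the other MHC-Plin5 hearts, against -0.28 to 0.33 in control hearts. Their summed level was 11.76 to 12.28 in control and 11.72 to 13.39 in MHC-Plin5 hearts, with 0 of 6 called by limma and 0 at an unadjusted p under 0.05. The 6 markers did not go together: 3 had a difference above 0 and 3 under 0. They ran from -0.38 (Myh11) to 0.62 (Cnn1, with an SD of 1.99 among MHC-Plin5 hearts). In MHC-Plin5 2 Fhl1 was 1.02 above the control mean with these markers at -0.27, and their part in the result was not tested. The difference of Fhl1 was 0.31 without MHC-Plin5 3 and 0.90 without MHC-Plin5 4.

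Rcan1 encodes a regulator that binds and inhibits calcineurin, and the start printed above with 3 NFAT cores is the one known to respond to NFAT. Rcan1 stood at 10.54, 10.78, 10.63 and 10.72 in control 1 to 4, while the MHC-Plin5 hearts 1 to 4 had 10.88, 12.10, 11.81 and 10.88. No MHC-Plin5 heart fell into the control range, but MHC-Plin5 1 and 4 were only 0.10 above control 2. The means of 11.42 ± 0.63 and 10.67 ± 0.11 (SD, n = 4 each) gave a difference of 0.75 (SE 0.25), which was not called.

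Nmrk2 encodes the muscle kinase that turns nicotinamide riboside into a precursor of NAD, the electron carrier of fuel oxidation. It stood at 6.78, 6.84, 6.88 and 7.16 in control 1 to 4, while the MHC-Plin5 hearts 1 to 4 had 7.63, 9.95, 9.93 and 8.24. All MHC-Plin5 hearts were above all control hearts, MHC-Plin5 1 by 0.47, and MHC-Plin5 2 and 3 lay about 3 log2 units above the control mean (3.03 and 3.02). The difference was 2.02 (SE 0.45), the 15th largest of all genes, and was called higher. Nmrk2 was no longer called when any of the 4 control hearts, or MHC-Plin5 2 or 3, was left out alone, with differences of 1.69 to 2.11. The call also ended with robust variances on an intensity trend, with a covariate for the array median, and in a fit without the 2 arrays of highest median.

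Uchl1 encodes a ubiquitin C-terminal hydrolase, a deubiquitinating enzyme that is abundant in neurons. It stood at 6.63, 6.41, 6.61 and 6.71 in control 1 to 4, while the MHC-Plin5 hearts 1 to 4 had 7.92, 9.70, 10.14 and 7.43. Every MHC-Plin5 heart was above every control heart by at least 0.72, and the difference of 2.21 (SE 0.50), the 10th largest of all genes, was called higher. In these hearts 0 of 11 measured neuron markers were called by limma (2 at an unadjusted p under 0.05, Nefm and Dbh, both with negative differences), and their median difference was -0.09. Their summed level was 9.08 to 9.33 in control and 8.99 to 9.08 in MHC-Plin5 hearts. The differences of the 11 ran from -0.33 (Dbh) to 0.18 (Prph), 7 of them under 0 and 4 above. In MHC-Plin5 3, where Uchl1 was highest, the mean of the neuron markers was 0.15 below the control mean. Several of these markers had low values in control hearts, such as Elavl4 (4.09) and Nefl (4.72), and the highest was Stmn2 (7.56). The part of neurons in the values of Uchl1 was not tested. Like that of Nmrk2, the call of Uchl1 was lost when any of the 4 control hearts, or MHC-Plin5 2 or 3, was left out alone (differences of 1.76 to 2.25). It was lost as well with robust variances on an intensity trend and with the array median as a covariate.

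The 4 MHC-Plin5 hearts were not alike in these genes. MHC-Plin5 2 or 3 was the highest MHC-Plin5 heart in 9 of the 10 genes, and MHC-Plin5 1 or 4 the lowest in all 10. MHC-Plin5 2 was the highest in 7 genes and MHC-Plin5 3 in 2, the exception being Ankrd2, which was highest in MHC-Plin5 4. MHC-Plin5 1 was the lowest in 4 genes and MHC-Plin5 4 in 6. The median deviation of the 10 genes from the control mean was 0.27, 1.07, 1.11 and 0.18 in MHC-Plin5 1 to 4, while that of all genes was -0.06, -0.06, -0.07 and 0.07. A median over all genes can hide rises and falls that balance. The calls over all genes also moved with the heart left out. Without MHC-Plin5 1, 2, 3 or 4, limma called 413, 177, 236 and 614 genes higher, against 415 with all hearts. It called 268, 56, 108 and 560 lower, against 233. Plin5 itself had the order MHC-Plin5 2, 3, 1 and 4, at 3.84, 3.78, 3.32 and 3.23 above the control mean, and 4 of the 10 genes had that same order. These were Ankrd1, Ankrd23, Xirp2 and Csrp3. With 4 hearts, no relation between the Plin5 level and these genes could be tested.

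**Figure D2:**
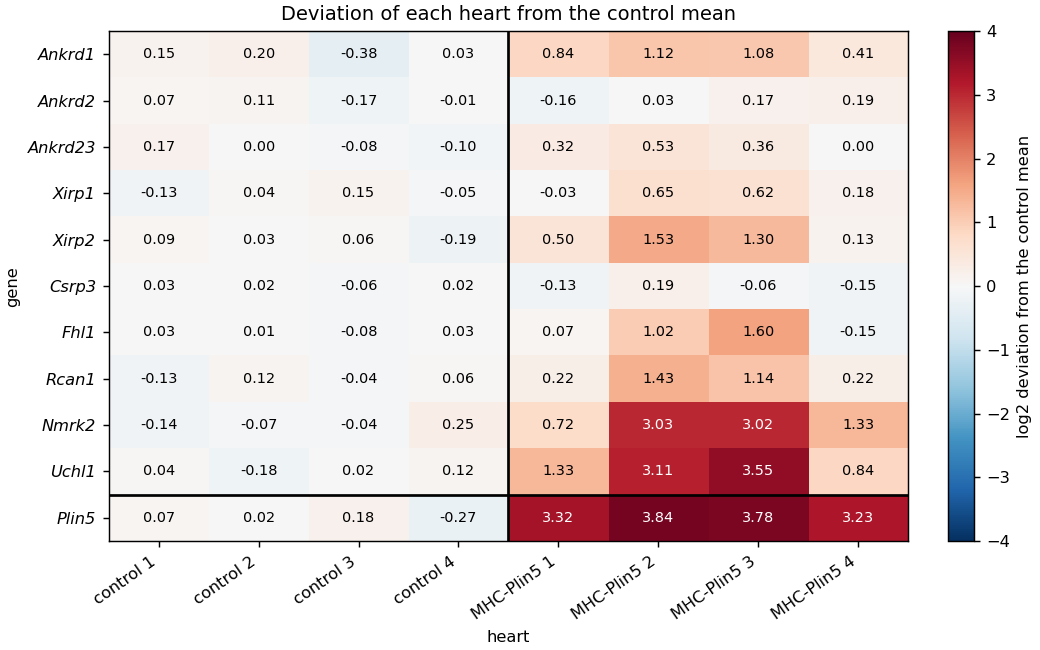
Log2 deviation of each heart (columns) from the mean of the 4 control hearts for the 10 genes and, below the line, Plin5, with the value in each cell. Nmrk2 and Uchl1 deviate by 3.02 to 3.55 in MHC-Plin5 2 and 3 and by 0.72 to 1.33 in MHC-Plin5 1 and 4, while Plin5 deviates by 3.23 to 3.84 in all 4.

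The spread among hearts was larger in the MHC-Plin5 group than in the control group in all 10 genes, as it was in 56.2% of all genes. The ratio of the SD in MHC-Plin5 to that in control hearts had a median of 4.46 over the 10 genes and of 1.13 over all genes. It was 15.4 in Fhl1 (0.82 against 0.05), 10.4 in Uchl1 (1.33 against 0.13), 6.96 in Nmrk2, 5.77 in Rcan1 and 5.20 in Xirp2. A ratio at least as large was found in 0.186% of all genes for Fhl1 and in 0.562% for Uchl1. Because the genes were picked with these data known, nothing is read from these shares. Ankrd1 had a ratio of 1.23, close to the median of all genes. A fit that assumes the same spread in both groups thus stands behind the calls of Uchl1 and Nmrk2.

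**Figure D3:**
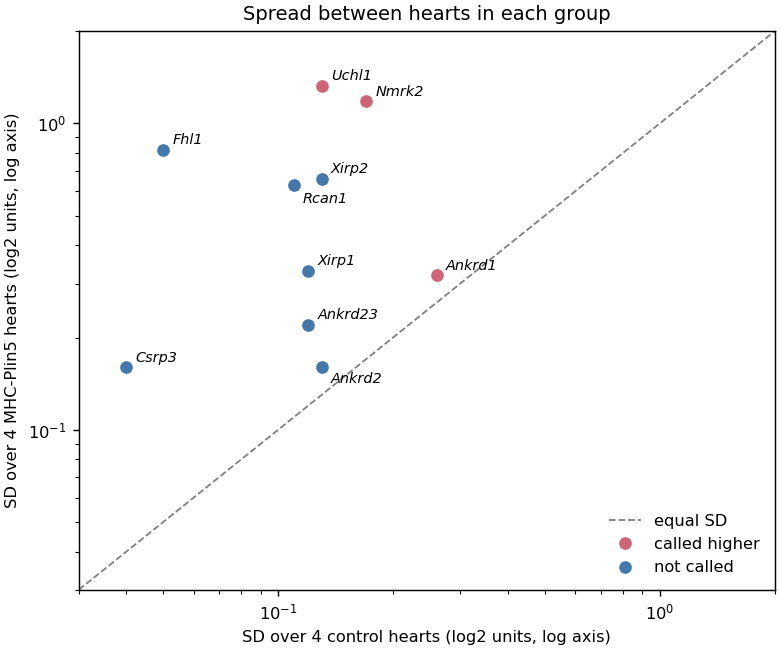
SD over the 4 MHC-Plin5 hearts against SD over the 4 control hearts for the 10 genes, both in log2 units on log axes, with the line of equal SD and the called genes in red. All 10 genes lie above the line, Ankrd1 with a ratio of 1.23 and Fhl1 with 15.4.

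For each called gene, the 2 other genes with the most similar pattern were found by the root mean square difference of their log2 deviations from the control mean over the 8 hearts. Nearest to Ankrd1 were Iah1, an esterase, at 0.122 log2 units, and Ppfibp1, a liprin of cell adhesion sites, at 0.154. Nearest to Nmrk2 were P3h2, a collagen prolyl hydroxylase, at 0.321 and Krt18, a keratin, at 0.394. Nearest to Uchl1 were Tbx15, a T-box transcription factor, at 0.306 and again P3h2 at 0.406. P3h2 deviated by 1.19, 2.87, 2.51 and 0.82 in MHC-Plin5 1 to 4, and Tbx15 by 1.55, 2.99, 2.90 and 0.60. Both had their largest values in MHC-Plin5 2 and 3, as Uchl1 and Nmrk2 did. Iah1 deviated by 0.85, 1.15, 0.96 and 0.28, with MHC-Plin5 4 the lowest as in Ankrd1. All these genes were picked for such likeness, so the shared high and low hearts follow from the choice and are no separate result.

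**Figure D4:**
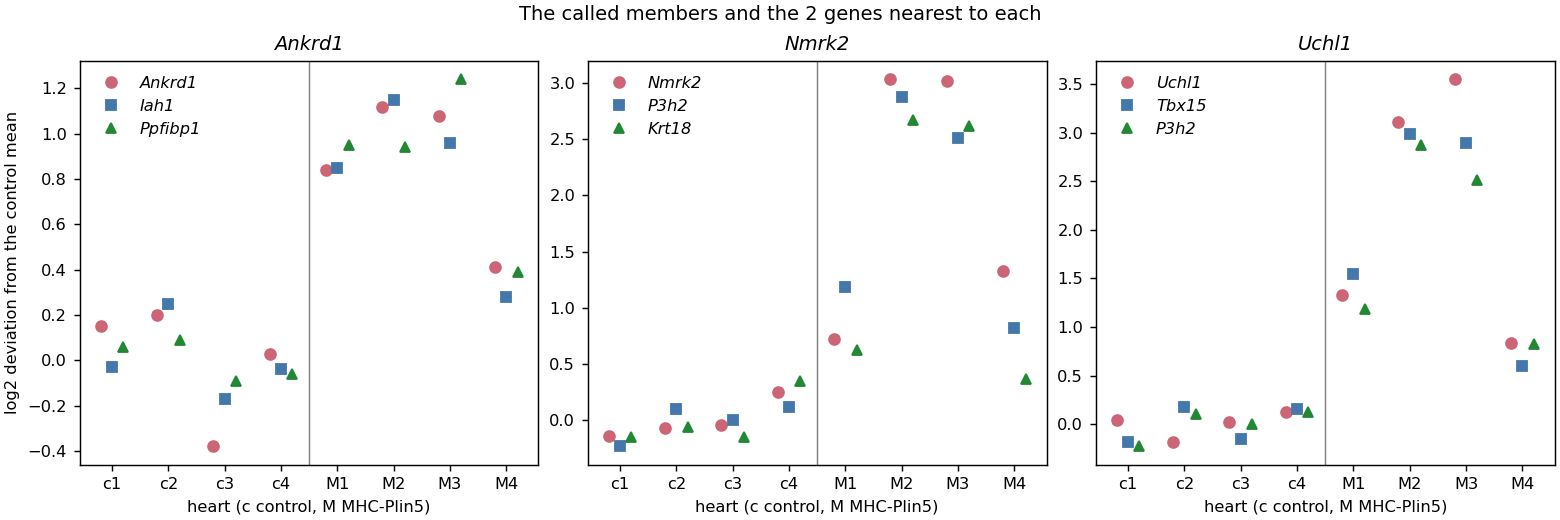
Log2 deviation from the control mean in each of the 8 hearts (c, control; M, MHC-Plin5) for Ankrd1, Nmrk2 and Uchl1 and the 2 genes nearest to each. In the Uchl1 panel all 3 genes lie between 2.51 and 3.55 in M2 and M3 and between 0.60 and 1.55 in M1 and M4.

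Genes that work beside these 10 were taken from 8 lists of textbook knowledge, written with earlier results of these data known. The counts of these lists are thus a description, and nothing is read from them. Of the 130 measured genes, 5 were called higher and 2 lower, beside the 2.08% and 1.17% of all genes, and the median difference was 0.02. The hypertrophy marker list had 1 of 11 genes called higher, 0 lower and a median of 0.97. Of the 11, 8 had a difference above 0. At an unadjusted limma p under 0.05, 5 were higher and 1 lower. Nppa (1.08) and Myl4 (0.97, with SDs of 2.35 in control and 1.65 in MHC-Plin5 hearts) are also atrial markers, and neither was called. The called gene was Acta1, the skeletal actin of the fetal heart, at 12.89, 13.51, 13.28 and 12.67 in MHC-Plin5 1 to 4 and 10.88 to 11.65 in control hearts (difference 1.90, SE 0.21, limma adjusted p = 0.000917). Myh7, the slow myosin heavy chain, was not called (1.58, SE 0.55, limma adjusted p = 0.163). It reached 13.06 and 12.26 in MHC-Plin5 2 and 3 against 10.62 and 10.02 in MHC-Plin5 1 and 4. Its control hearts lay at 9.61 to 10.52. Nppb, the B-type natriuretic peptide, had the same 2 hearts on top, at 13.49 and 13.42 against 12.36 and 11.31 (1.42, SE 0.41, limma adjusted p = 0.096, not called). Control hearts had Nppb at 10.76 to 11.64, so MHC-Plin5 4 lay inside the control range in both Myh7 and Nppb. Ccn2, a matricellular target of YAP that is also in the Hippo list, was not called either (1.56, SE 0.52, limma adjusted p = 0.148). It lay at 10.93 to 13.67 in MHC-Plin5 and 10.21 to 11.32 in control hearts, so its groups overlapped too.

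Among 20 titin and Z-disc genes, 1 was called higher, 0 lower, and the median was -0.03. At an unadjusted limma p under 0.05, 2 were higher and 3 lower. The called gene was Flnc, the actin crosslinker filamin C, at 11.49, 12.02, 12.00 and 11.74 in MHC-Plin5 1 to 4 and 10.64 to 11.00 in control hearts (1.03, SE 0.14, limma adjusted p = 0.00258). Myot, the Z-disc protein myotilin, had the largest negative difference (-1.52, SE 0.47, limma adjusted p = 0.12, not called), with 7.05 in MHC-Plin5 3 and 9.20 to 9.51 in the other MHC-Plin5 hearts. Of 19 intercalated disc genes, 1 was called higher and 1 lower, with a median of -0.01. At an unadjusted limma p under 0.05, 5 were higher and 4 lower, beside 8.69% and 7.86% of all genes. The groups did not overlap in 9 of the 19, beside 11.2% of all genes, so the median covers differences in both directions. Enah, an actin filament elongator, was higher at 11.21, 11.98, 11.91 and 10.65 in MHC-Plin5 1 to 4 against 10.38 to 10.50 in control hearts (1.03, SE 0.25, limma adjusted p = 0.0479). Dsg2, a desmosomal cadherin, was lower (-0.58, SE 0.13, limma adjusted p = 0.0368), at 8.43, 8.02, 8.01 and 8.53 against 8.77 to 8.86. The calls of Flnc and Acta1 held with any single heart left out. Enah lost its call when any heart but MHC-Plin5 4 was left out (0.85 to 1.11), and also with quantile normalization, median centring, robust variances on an intensity trend or the array median as a covariate. That of Dsg2 was lost when any of the 4 control hearts, or MHC-Plin5 2 or 3, was left out alone (-0.60 to -0.50), and also with a covariate for the array median (-0.54).

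Of 14 genes of LIM proteins, 0 were called higher and 1 lower (median -0.03). At an unadjusted limma p under 0.05, 2 were higher and 3 lower. The called gene was Ablim1, which binds actin (-0.45, SE 0.10, limma adjusted p = 0.0339). Its control hearts lay at 10.89 to 11.12 and its MHC-Plin5 hearts at 10.48 to 10.70. The ubiquitin list had 2 of 7 measured genes called higher and 0 lower (median 0.19). At an unadjusted limma p under 0.05, 3 were higher and 0 lower. Both called genes, Uchl3 (0.59, SE 0.11, limma adjusted p = 0.0184) and Uchl5 (0.45, SE 0.10, limma adjusted p = 0.0374), encode hydrolases of the family of Uchl1. Uchl3 lay at 10.04 to 10.24 in MHC-Plin5 and 9.29 to 9.70 in control hearts, with SDs of 0.08 and 0.19. The spread of Uchl1 among MHC-Plin5 hearts was thus not seen in Uchl3. Ablim1 kept its call only when the heart left out was control 4 or MHC-Plin5 4 (otherwise -0.48 to -0.41), and Uchl5 only when it was MHC-Plin5 4 (otherwise 0.40 to 0.50). Both also lost it without the 2 arrays of highest median (-0.46 and 0.38). Uchl3 lost its call when control 1 or MHC-Plin5 2 was left out (0.56 to 0.60).

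In the remaining 3 lists 0 genes were called by limma. Calcineurin and NFAT genes had 16 measured members (3 at an unadjusted p under 0.05, 1 higher and 2 lower) and a median of -0.04, with the smallest p in Nfatc2 (-0.24, SE 0.10, unadjusted p = 0.0319 by limma). The list of Hippo signalling, TEAD and SRF factors and their targets had 23 measured members, 19 of them with a difference above 0, beside 42.5% of all genes, and a median of 0.16. At an unadjusted p under 0.05, 6 were higher and 1 lower. Its smallest p values were those of Myocd, a coactivator of SRF (-0.45, SE 0.11, limma adjusted p = 0.0596), and Vgll2, a TEAD cofactor (0.92, SE 0.24, limma adjusted p = 0.0667). The list of NAD synthesis and use had 21 measured members (2 higher and 3 lower at an unadjusted p under 0.05) and a median of -0.12. Nt5e, an ectonucleotidase, was at 0.71 (SE 0.19, limma adjusted p = 0.0682) and Nmnat1, which completes NAD in the nucleus, at -0.59 (SE 0.16, limma adjusted p = 0.0811).

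**Figure D5:**
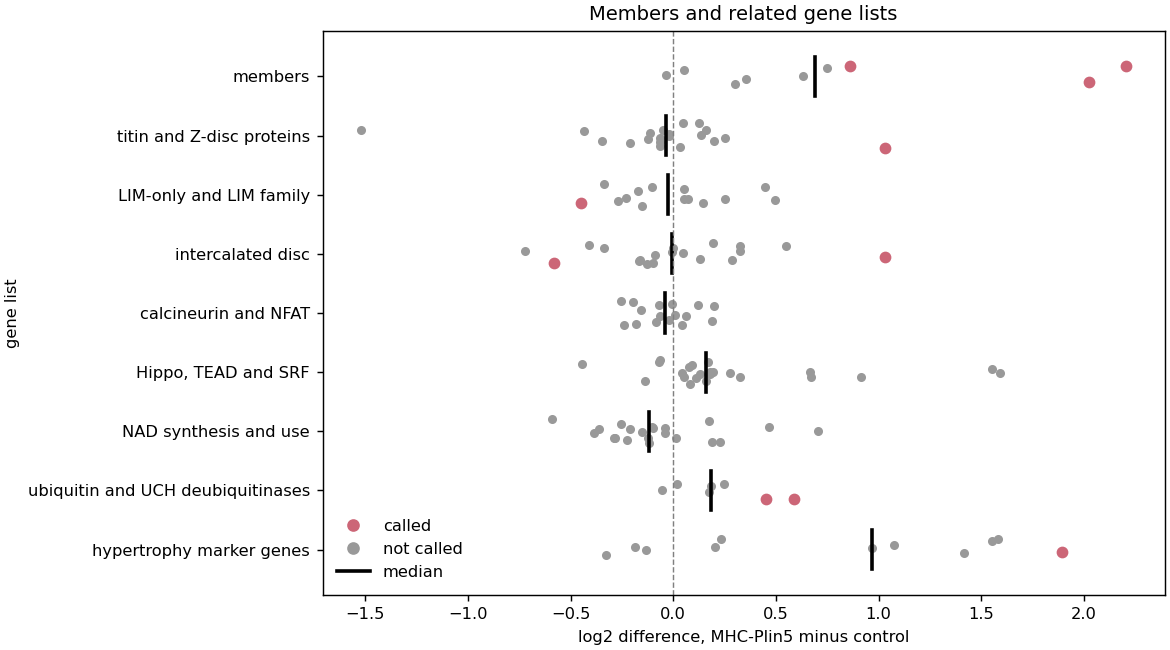
Log2 difference (MHC-Plin5 minus control) of the 10 genes (the row named members) and of the measured genes of the 8 related lists, 1 point a gene, with called genes in red and the median of each list as a bar. The medians are 0.69 for the 10 genes, 0.97 for the hypertrophy markers and -0.12 to 0.19 for the other 7 lists.

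The hearts carried the markers of ventricular muscle at a summed level of 16.90 to 16.95 in control and 16.71 to 16.94 in MHC-Plin5 hearts, with 0 of 10 called by limma and 2 at an unadjusted p under 0.05. Of these 10 markers, 8 had a difference under 0 (median -0.11). On average they deviated from the control mean by -0.03, -0.13, -0.24 and 0.04 in MHC-Plin5 1 to 4 and by -0.02 to 0.03 in control hearts. Atrial markers varied within both groups, with a summed level of 12.06 to 15.12 in control and 14.00 to 15.21 in MHC-Plin5 hearts. Their mean deviation from the control mean was 0.19, -0.73, 1.84 and 1.12 in MHC-Plin5 1 to 4 and -1.3 to 1.75 in control hearts. MHC-Plin5 2, the highest heart in 7 of the 10 genes, had the lowest atrial markers of its group. MHC-Plin5 3, among the top 2 MHC-Plin5 hearts in all 10 genes, had the highest. Of the 8 atrial markers, 7 had a difference above 0 (median 0.79), with 0 called by limma and 1 at an unadjusted p under 0.05. Fibroblast markers deviated by -0.11, 0.25, 0.71 and 0.39 in these hearts, against -0.25 to 0.29 in control hearts. Macrophage markers deviated by 0.04, 0.03, 0.65 and 0.53, against -0.25 to 0.22. Of these markers 0 of 8 and 0 of 7 were called by limma, with 1 of each at an unadjusted p under 0.05. All 8 fibroblast markers (median 0.33) and all 7 macrophage markers (median 0.3) had a difference above 0, beside 42.5% of all genes. The part of these cell types in the values of the 10 genes was not tested.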

How the data were processed

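RNA of 8 hearts, isolated with a Qiagen kit, was hybridised to Affymetrix whole-transcript arrays, per the labels' protocols. The deposited log2 values are the authors' RMA output from Affymetrix Expression Console, as the submitters' processing notes name it, with version and settings not given in the sources. The table held 35556 rows, of which 21789 carried exactly 1 symbol in GEO's platform annotation. A gene with several rows is represented by its brightest row on average, which left 19938 genes. No scanner files or scan dates were used here, so no batch was tested.

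Genotype was the only term in limma 3.58.1 (lmFit and eBayes, R 4.3.3), two-sided, with Benjamini-Hochberg adjustment over all genes. The step was tested on simulated data with the same SD in both groups. That setting does not cover genes of unequal spread such as Uchl1 and Nmrk2. The 10 genes, the related lists and the alternatives were chosen with earlier results of these data known. All 10 genes are named, with Plin5, up to 4 genes of smallest p in each related list with a called gene and up to 2 in the others (some shortened to counts), and the 2 nearest genes of each called gene. A summed level is the log2 of the sum of the unlogged values of a marker list. Alternatives were a filter at a mean of 5, quantile normalization, median centring, robust variances on a trend, averaging a gene's rows, array weights, the heart number as a block, the array median as a covariate, and fits without 1 heart or without the 2 arrays of highest median. Start windows are RefSeq's. An SE or interval covers the spread between hearts only.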

Additional observations from a re-analysis of the deposited data

Results flagged for a closer look

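Among 74 groups of 4 hearts (the 10 genes, Plin5 and 26 genes of the related lists, not all of them described above), 7 had 1 heart far from the other 3, by Dixon's gap test at the 95% level, where chance gives about 1 in 20 groups. Of the 10 stretch and hypertrophy genes, Csrp3 stood at 12.51 in control 3 against 12.58 to 12.60 in the other controls, and Fhl1 at 10.43 in control 3 against 10.53 to 10.54. Both gaps are small in absolute size. Among the related genes, Ablim1 stood at 10.89 in control 4 (others 11.08 to 11.12), Enah at 10.50 in control 1 (10.38 to 10.39) and Gsk3b at 10.08 in MHC-Plin5 2 (9.94 to 9.96). In MHC-Plin5 3, Cttn stood at 9.53 (8.94 to 8.98) and Myot at 7.05 (9.20 to 9.51).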

How the results depend on the processing

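Over 17 alternatives, 166 of 170 values of the 10 genes kept their direction. The reversed ones were small: Csrp3 at 0.005 with median centring, 0.04 with array weights and 0.005 without the 2 arrays of highest median, and Ankrd2 at -0.003 without control 3 (-0.003 to 0.127 over all fits without 1 heart). Calls ended in 22 values, all of them of the 3 called genes, the only ones with a call to lose. Of the 8 fits without 1 heart, 5 ended the call of Ankrd1, 6 that of Nmrk2 and 6 that of Uchl1. Calls were gained in 5 values of other genes. Array weights called 6 of the 10 genes (with Xirp2, Rcan1 and Ankrd23 added), while robust variances on a trend and the array median as a covariate each called 1, Ankrd1. With 1 heart left out this count was 0 to 4, and none was called lower in any fit. Over all genes, array weights called 884 higher and 741 lower, and quantile normalization 355 lower, with 55.1% of its calls higher against 64.0% in the fit as reported. Without 1 heart the counts ran from 170 to 614 higher and from 56 to 560 lower. In the related lists, array weights called 14 higher and 10 lower, quantile normalization 5 lower, robust variances 4 lower, and the array median as a covariate 1 lower. Without the 2 arrays of highest median it was 1 lower, and without 1 heart 2 to 11 higher and 0 to 6 lower. The cause of these shifts was not tested. The heart number as a replicate block called the same 3 of the 10 genes, 330 higher and 177 lower over all genes and 1 lower in the related lists, where Ablim1, Dsg2, Uchl3 and Uchl5 lost their calls. Deviations of same-numbered hearts correlated at 0.187, 0.025, -0.107 and -0.04, so the numbers were not taken to pair the hearts.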
